A study of Homo sapiens with 6 samples.

Results

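The 10 genes described here encode surface antigens by which blood cells and their progenitors are typed with antibodies, namely CD33, CD34, CD36, CD9, CD55, CD59, ANPEP, CD7, MME and CD24. They were taken by symbol from the 20030 genes of the deposited count table, where each has 1 row. The rule uses names and no measured value, but the names were listed with earlier results of these data known. RNA-seq was performed on 6 libraries of NCI-H929, an established human cell line labelled as multiple myeloma cells, 3 of IGF2BP1-KD cells and 3 of IGF2BP1-NC cells. As the study's methods describe, knockdown lines carried a lentiviral shRNA against IGF2BP1 driven by the human U6 promoter and were kept as stable transfectants under drug selection. The methods list more than 1 target sequence for it, and the labels do not say which of them these libraries carried. Of the controls, the labels say no more than that they are the negative control (NC) of IGF2BP1. Nothing in the sources used here says whether the 3 libraries of a group came from separate cultures, so p-values measure the spread between these libraries, which may be technical.

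Such antigens are read in panels, because few of them belong to a single lineage. CD33, a sialic acid binding Siglec, and ANPEP (CD13), a zinc aminopeptidase, are classical antigens of myeloid cells. CD34, a sialomucin, marks stem and progenitor cells, CD7 marks T and NK cells, and MME (CD10, neprilysin), a zinc endopeptidase, is known from early lymphoid cells and germinal centre B cells. CD24, a small sialoglycoprotein, is found on B cells and granulocytes, CD36, a class B scavenger receptor that takes up fatty acids, on monocytes, platelets and erythroid precursors, and CD9, a tetraspanin, on platelets and many other cells. CD55 and CD59 are carried by nearly all blood cells and shield them from complement, CD55 by speeding the decay of the convertases and CD59 by blocking the membrane attack complex. CD55, CD59 and CD24 are held in the membrane by a glycosylphosphatidylinositol (GPI) anchor. In the KEGG terms of the deposited table, all 10 genes belong to the set of 94 genes named hematopoietic cell lineage.

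Total counts per library lay between 16885449 and 18112179. IGF2BP1 mRNA was lower in each IGF2BP1-KD library, with a log2 fold change of -1.85 (standard error 0.0653, edgeR adjusted p = 4.81e-08). The label was checked against markers of the cell type. Of 13 plasma cell markers, 7 had at most 3 counts in every library, among them TNFRSF17, IRF4 and CD38, and 3 were above 1 CPM in every library. All 14 erythroid markers were above 1 CPM in every library, and their summed level was 7590 to 9140 CPM in IGF2BP1-NC and 8410 to 9410 CPM in IGF2BP1-KD libraries. Of the other marker lists, 2 of 7 B cell, 5 of 10 T and NK cell, 4 of 9 megakaryocyte and none of 12 monocyte and granulocyte markers were at or under 3 counts throughout. Above 1 CPM in every library were 1 B cell, 1 T and NK cell, 3 megakaryocyte and 3 monocyte and granulocyte markers. The antigens are therefore described by the labels of the libraries and not as those of plasma cells.

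The promoter windows of CD33 and ANPEP are shown as those of genes that were higher after IGF2BP1 knockdown in all 15 alternative analyses. Those of MME, higher in all 13 alternatives in which it was tested, are not shown. The windows were read from RefSeq (GRCh38.p14) and run from 250 bases before to 50 bases after an annotated start, in the direction of transcription. Each match to the ETS core GGAAG or its reverse complement CTTCC is in capitals. CD33 has 1 annotated window, chr19:51224830-51225129 on the plus strand, and ANPEP has an upstream window, chr15:89814803-89815102, and a downstream window, chr15:89806579-89806878, both on the minus strand.
CD33: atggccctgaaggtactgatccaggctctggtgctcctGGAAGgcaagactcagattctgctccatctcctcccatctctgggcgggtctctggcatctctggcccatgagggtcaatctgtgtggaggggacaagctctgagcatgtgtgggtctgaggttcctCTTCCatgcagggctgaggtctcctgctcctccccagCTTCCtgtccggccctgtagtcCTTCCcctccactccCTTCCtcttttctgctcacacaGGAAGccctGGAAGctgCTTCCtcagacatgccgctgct
ANPEP upstream: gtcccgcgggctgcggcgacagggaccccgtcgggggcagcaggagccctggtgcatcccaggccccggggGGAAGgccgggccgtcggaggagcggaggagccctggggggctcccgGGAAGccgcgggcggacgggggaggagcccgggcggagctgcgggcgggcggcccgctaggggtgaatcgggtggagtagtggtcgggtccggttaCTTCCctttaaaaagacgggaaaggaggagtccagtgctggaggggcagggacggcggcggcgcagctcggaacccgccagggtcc
ANPEP downstream: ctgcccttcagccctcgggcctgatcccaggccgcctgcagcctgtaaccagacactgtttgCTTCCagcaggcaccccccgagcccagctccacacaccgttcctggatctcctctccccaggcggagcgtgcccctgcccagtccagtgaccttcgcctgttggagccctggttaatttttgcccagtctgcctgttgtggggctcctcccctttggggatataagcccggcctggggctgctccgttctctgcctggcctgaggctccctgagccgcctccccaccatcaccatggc

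The CD33 window held 8 matches to the ETS core, against a median of 1 over all 35116 promoter windows of the same length, and 0.111% of these held at least 8. This window was singled out after its matches had been counted. The upstream and downstream windows of ANPEP held 3 matches and 1 match. Windows were available for 9 of the 10 antigens, 26 in all, and 20 of the 26 (76.9%) held the ETS core, beside 71.9% of all windows. The GATA motif AGATAA, searched on both strands, was present in 1 window, one of CD36, that is in 3.85% of the antigens' windows and in 10.3% of all windows. The GC box, TATA box and CCAAT box were searched as well. They were present in 50%, 7.69% and 26.9% of the antigens' windows, beside 45%, 11.5% and 34.6% of all windows. The windows differed widely in CpG content. That of CD33 held 3 CpG dinucleotides and that of ANPEP upstream 32, and each of the 6 windows of CD36 held at most 3, where the median over all windows was 14. The counts per gene do not show which start was used, and a match is no evidence that a factor bound there.

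The levels of the antigens differed widely. CD55 and CD59 stood at the top and CD34 and CD7 at the bottom in all 6 libraries. Levels of different genes are compared as FPKM, which divides the reads by gene length and by the size of the library. In IGF2BP1-NC libraries the mean FPKM was 36.1 for CD55, 18.8 for CD59, 3.38 for CD33, 2.50 for CD24, 1.13 for ANPEP, 0.656 for CD36, 0.188 for CD9 and 0.162 for MME. Of the 9 pairs of neighbours in this order, 6 had ranges over the 3 libraries that did not overlap, and CD33 with CD24, CD9 with MME and CD34 with CD7 overlapped. In IGF2BP1-KD libraries 5 of the 9 pairs did not overlap, and CD36 with MME was among those that did. The order CD55, CD59, CD33, CD24, ANPEP and CD36 was found in 5 of the 6 libraries. In IGF2BP1-KD library 3, CD24 exceeded CD33, and CD36 fell behind MME and CD9.

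**Figure D1:**
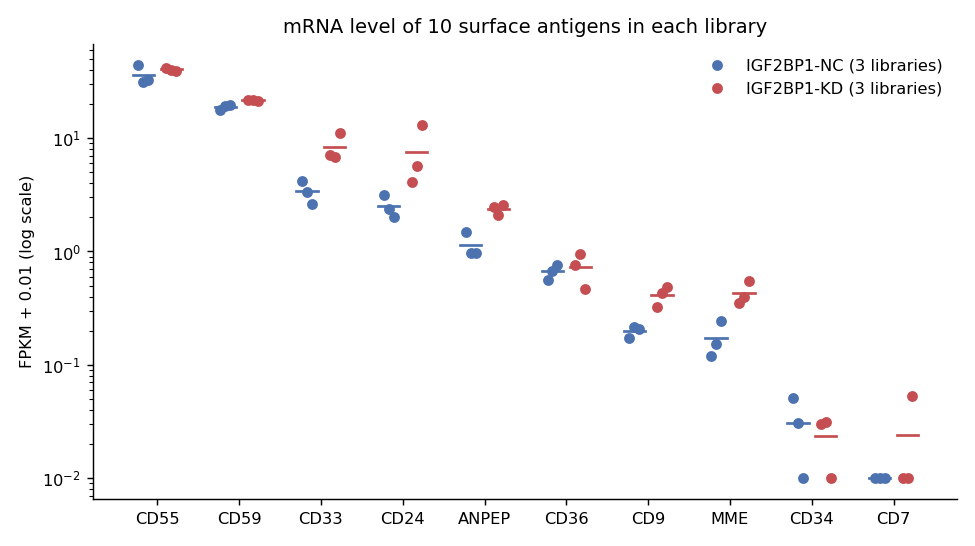
The plot of levels shows FPKM + 0.01 on a log axis for the 10 antigens, ordered by their mean in IGF2BP1-NC libraries, with 1 point per library and a line at each group's mean (3 libraries each). CD55 and CD59 lie above 17 FPKM in every library, while CD34 and CD7 lie at or under 0.0427 FPKM, and the IGF2BP1-KD points of CD33, CD24, ANPEP, CD9, MME and CD59 all lie above the IGF2BP1-NC points.

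Knockdown was compared with control by edgeR's quasi-likelihood test over all 11994 genes with enough counts, 8 of them antigens. CD34 and CD7 had too few counts to be tested. Of these 8 antigens, 5 passed an adjusted p under 0.05 with a higher level after knockdown, namely MME, CD33, CD9, ANPEP and CD59, where 13.7% of all tested genes were higher. None was lower in edgeR or in DESeq2, and 0 were lower in edgeR at an unadjusted p under 0.05, where 14.5% of all tested genes were lower at the adjusted threshold. In 6 of the 8 antigens every IGF2BP1-KD library lay above every IGF2BP1-NC library (22.4% of all tested genes), and in 0 every IGF2BP1-KD library lay below (23.2%). CD9 passed the filter on low counts only through its IGF2BP1-KD libraries, and without it 4 of 7 tested antigens were higher. CD9 is also among the 6 antigens with separate groups, and both that count and the median below include it. The count of 5 became 3 without IGF2BP1-NC library 2 or without IGF2BP1-KD library 2, and 4 without any one of the others. The median log2 fold change was 1.07 over the 8 antigens and -0.0048 over all tested genes. Because of how the antigens were listed, their share is no independent evidence about surface antigens at large.

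CD33 (NCBI gene 945, chromosome 19 of GRCh38 from 51225064 to 51243860, 7 exons) rose by more than 2-fold. Its counts were 206, 164 and 135 in IGF2BP1-NC libraries 1, 2 and 3 and 359, 325 and 548 in IGF2BP1-KD libraries 1, 2 and 3, which is 3.38 ± 0.786 against 8.33 ± 2.41 FPKM (SD, n = 3 each). Every knockdown library exceeded every control library, and IGF2BP1-KD library 3 was the highest. On the log2 scale CD33 changed by 1.29 (standard error 0.230, 95% interval 0.76 to 1.82, edgeR adjusted p = 0.00537), and it stayed at 1.03 without IGF2BP1-KD library 3. The promoter of CD33 is the window with 8 ETS core matches shown above, and whether these matches bear on its change was not tested. Of the stretches of 50 bases in the CD33 mRNA, 2.62% also occur in transcripts of other genes, one of them the Siglec pseudogene SIGLEC22P.

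ANPEP (NCBI gene 290, chromosome 15 from 89784895 to 89815401, minus strand, 21 exons) rose to a similar degree at a lower level. It had 96, 64 and 66 counts in IGF2BP1-NC and 168, 133 and 168 counts in IGF2BP1-KD libraries, or 1.13 ± 0.287 against 2.36 ± 0.252 FPKM (SD, n = 3 each). The groups did not overlap, and no single knockdown library stood out. The log2 fold change was 1.06 (standard error 0.191, 95% interval 0.64 to 1.48, edgeR adjusted p = 0.00244). Leaving out single libraries, the estimate ranged from 0.96 to 1.27 and its adjusted p from edgeR reached at most 0.0176.

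MME, another zinc peptidase among the antigens (NCBI gene 4311, chromosome 3 from 155024124 to 155183704, 23 exons), showed the largest rise of those past the threshold, though from a low level. Its counts were 20, 26 and 45 in IGF2BP1-NC and 64, 69 and 98 in IGF2BP1-KD libraries, that is 0.162 ± 0.0656 against 0.420 ± 0.101 FPKM (SD, n = 3 each). The highest control library, 3, stayed under the lowest knockdown library, 1. This gave a log2 fold change of 1.35 (standard error 0.304, 95% interval 0.68 to 2.02, edgeR adjusted p = 0.00766). An antisense gene, MME-AS1, overlaps its exons. The libraries were made with a stranded kit, but whether the counting used the strand was not given in the sources used here, and a share of antisense reads in the MME counts was not tested.

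CD24 had the largest fold change of the 8 antigens but did not pass the threshold. CD24 (NCBI gene 100133941, chromosome 6 from 106969831 to 106975627, minus strand, 2 exons) had 194, 146 and 128 counts in IGF2BP1-NC and 260, 341 and 796 counts in IGF2BP1-KD libraries. Every knockdown library was above every control library, but library 3 held more than the other knockdown libraries together, and the coefficient of variation of the FPKM was 61.9% in IGF2BP1-KD against 23.8% in IGF2BP1-NC cells. On the log2 scale the fold change of CD24 was 1.58 (standard error 0.526, 95% interval 0.20 to 2.97, edgeR adjusted p = 0.0903). Without IGF2BP1-KD library 3 it was smaller, 0.96, and passed the threshold (edgeR adjusted p = 0.00999), and with DESeq2 the adjusted p was 0.0138. Over all alternatives it ranged from 0.00999 to 0.228. Of the 50-base stretches of the CD24 mRNA, 7.93% also occur in 59 other genes, its pseudogene copies CD24P2 and CD24P4 among them. How the counting treated reads from these stretches was not tested.

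CD9 (NCBI gene 928, chromosome 12 from 6199715 to 6238271, 8 exons) was barely detected. Its counts were 7, 9 and 9 in IGF2BP1-NC and 14, 18 and 21 in IGF2BP1-KD libraries, equal to 0.188 ± 0.0238 and 0.405 ± 0.0857 FPKM (SD, n = 3 each). The groups did not overlap, but no library held more than 21 reads of the gene. The log2 fold change was 1.08 (standard error 0.368, 95% interval 0.27 to 1.89, edgeR adjusted p = 0.0473), and the call was lost whichever of the 6 libraries was left out, with adjusted p between 0.0567 and 0.139 in edgeR.

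**Figure D2:**
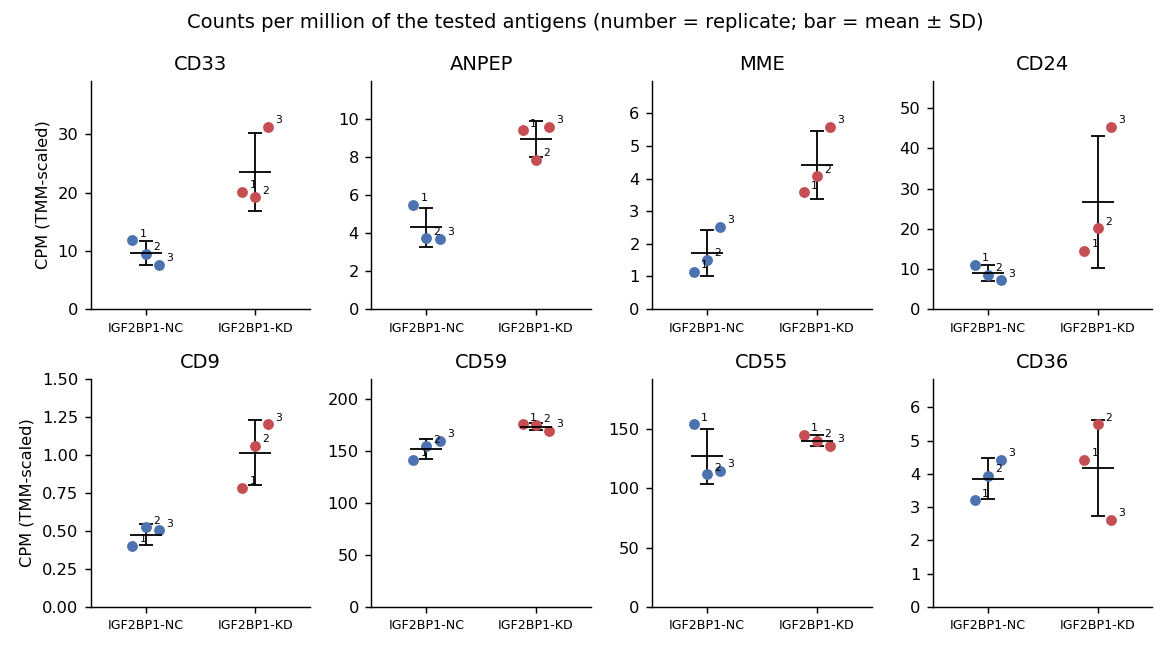
The plots of scaled counts show TMM-scaled CPM of the 8 tested antigens on linear axes from 0, with 1 numbered point per library and the mean ± SD of each group of 3. CD24 ranges from 14.5 to 45.4 CPM in IGF2BP1-KD libraries, CD33 from 19.2 to 31.3 and ANPEP from 7.85 to 9.59, while the groups overlap for CD55 and CD36.

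The complement regulators CD55 and CD59 were the most abundant antigens and had small fold changes. CD59 (NCBI gene 966, chromosome 11 from 33703010 to 33736479, minus strand) had an FPKM of 17.7, 19.0 and 19.6 in IGF2BP1-NC and 21.8, 21.7 and 21.2 in IGF2BP1-KD libraries, a tight rise without overlap. Its log2 fold change was 0.19 (standard error 0.0625, 95% interval 0.05 to 0.33, edgeR adjusted p = 0.0402), and with a library left out it passed the threshold once, without IGF2BP1-NC library 3. The other 5 omissions gave an adjusted p between 0.0618 and 0.122 in edgeR. GENCODE places an unnamed gene on the same strand over the exons of CD59, and 7.94% of the 50-base stretches of the CD59 mRNA are shared with it.

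CD55 (NCBI gene 1604, chromosome 1 from 207321519 to 207386804, 10 exons) had an FPKM of 44.4, 31.5 and 32.4 in IGF2BP1-NC and 41.4, 40.2 and 39.2 in IGF2BP1-KD libraries. IGF2BP1-NC library 1 lay above all knockdown libraries and the other controls below them, so that the groups overlapped. Between the groups the log2 fold change was 0.15 (95% interval -0.11 to 0.41, edgeR adjusted p = 0.362). Without IGF2BP1-NC library 1 it was 0.31 with an edgeR adjusted p of 0.00158. The other controls lie below the knockdown libraries, so this omission had to widen the difference and does not show that CD55 rose. Without IGF2BP1-NC library 2 the log2 fold change of CD55 was 0.07 and without library 3 it was 0.09, and neither passed the threshold. The ratio of CD55 to CD59 FPKM was 2.51 in IGF2BP1-NC library 1 and between 1.66 and 1.90 in the other 5 libraries.

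CD36 (NCBI gene 948, chromosome 7 from 80369575 to 80679277, 15 exons) did not pass the threshold. It had 56, 68 and 79 counts in IGF2BP1-NC and 79, 93 and 46 counts in IGF2BP1-KD libraries, and the lowest and the highest value were both found among the knockdown libraries. The log2 fold change was 0.11 with a 95% interval from -0.47 to 0.70 (edgeR adjusted p = 0.778), which spans a fall as well as a rise of up to 1.62-fold. IGF2BP1-KD library 3, which was the highest for CD33, CD24, MME, CD9 and ANPEP, was the lowest for CD36.

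CD34 and CD7 were at the limit of detection. CD34 (NCBI gene 947, chromosome 1 from 207880972 to 207911402) had 2, 1 and 0 counts in IGF2BP1-NC and 1, 1 and 0 counts in IGF2BP1-KD libraries. CD7 (NCBI gene 924, chromosome 17 from 82314868 to 82317608) had 0 counts in 5 libraries and 1 count in IGF2BP1-KD library 3. Where no read was found, up to 3 counts remain possible, equal to 0.166 to 0.178 CPM at these depths (counting error only), so a difference between the groups could not be seen for either gene.

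**Figure D3:**
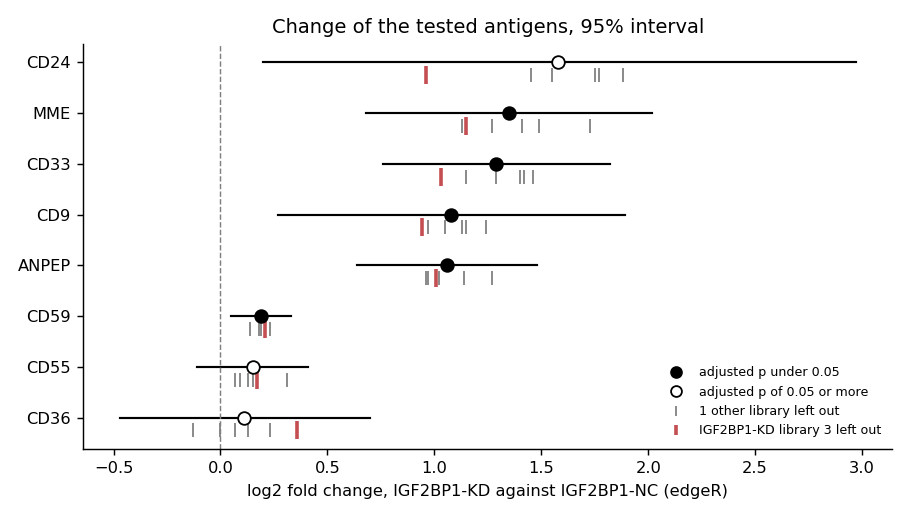
The plot of changes shows the log2 fold change of the 8 tested antigens in edgeR with its 95% interval, filled where the adjusted p was under 0.05, and below each point the values with 1 library left out, in red that without IGF2BP1-KD library 3. The values of MME, CD33, CD9 and ANPEP stay at or above 0.94 in all of these fits. CD9 passed the filter on low counts only through its IGF2BP1-KD libraries. CD24 moves from 1.58 to 0.96 without IGF2BP1-KD library 3, and CD36 lies on both sides of 0.

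IGF2BP1-KD library 3 was the highest of the 6 for 5 of the 8 tested antigens. It was the highest for 21.3% of all tested genes and for 56.8% of the 1648 genes that were higher in IGF2BP1-KD. IGF2BP1-NC library 1 was the highest for more genes, 22.5% of those tested, and had the lowest mean correlation with the other libraries of its group (0.9882, against 0.9915 for IGF2BP1-KD library 3). The summed level of the 12 monocyte and granulocyte markers was 95.2 to 134 CPM in IGF2BP1-NC and 125 to 198 CPM in IGF2BP1-KD libraries. Its top value was found in IGF2BP1-KD library 3. Most of this sum came from CD68, with 1622, 1498 and 1173 counts in IGF2BP1-NC and 1544, 1488 and 2302 in IGF2BP1-KD libraries. LYZ made up most of the rest, and neither gene passed the threshold. Of these 12, 5 could be tested and CSF3R, the receptor of granulocyte colony-stimulating factor, was the one that rose (2, 4 and 1 counts against 23, 26 and 54; log2 fold change 3.82, edgeR adjusted p = 0.000758). Like CD9, CSF3R and CD14 of this list reached the filter only through the IGF2BP1-KD libraries, and with at least 10 counts required in every library no gene of the list was called. S100A8 and S100A9, abundant in granulocytes, had 94 and 164 counts in IGF2BP1-KD library 2 and 56 and 106 in library 3, but 3 and 7 in library 1, where the controls had at most 7 and 6. Without IGF2BP1-KD library 1, 5 genes of this list were higher, and 2 without IGF2BP1-NC library 1. In IGF2BP1-KD library 1, CD33 had 359 and ANPEP 168 counts, above all controls. The part of these transcripts in the change of the myeloid antigens was not tested beyond these values, and in bulk RNA a change in the share of cells that carry an antigen and a change in the mRNA per cell cannot be told apart.

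The relatives of the antigens were read from lists of genes with the same kind of role, and each count is to be read against the 13.7% of all tested genes that were higher and the 14.5% that were lower. Among 14 other Siglec genes, relatives of CD33, 5 could be tested and 3 were higher, CD22, SIGLEC6 and SIGLEC8, and 0 lower, with a median log2 fold change of 1.03. SIGLEC8 and SIGLEC10 reached the filter only through the IGF2BP1-KD libraries, so this count and median lean on genes that had to be high there. MAG, tested without passing the threshold, had 77, 88 and 73 counts in IGF2BP1-NC and 62, 53 and 74 in IGF2BP1-KD libraries. SIGLEC6 had 42, 55 and 36 counts in IGF2BP1-NC and 160, 154 and 390 in IGF2BP1-KD libraries (log2 fold change 2.40, edgeR adjusted p = 0.0118). CD22, an inhibitory receptor of B cells, had a log2 fold change of 0.90 (edgeR adjusted p = 0.00931). SIGLEC6 lost its call without IGF2BP1-NC library 1 or 3 (edgeR adjusted p up to 0.0708), and SIGLEC8, with at most 39 counts, kept its call in 1 of 6 such fits. Of the CD34 relatives, PODXL was tested, again only through its IGF2BP1-KD counts, without passing the threshold and EMCN had at most 2 counts.

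The enzymes related to ANPEP and MME held genes of both directions. Of 16 other metallopeptidases of their families, 11 were tested, 1 was higher and 3 were lower (13.7% and 14.5% of all tested genes). ERAP1, which trims peptides in the endoplasmic reticulum, was higher (log2 fold change 0.67, edgeR adjusted p = 9.07e-05), and NPEPPS, the puromycin-sensitive aminopeptidase, was lower (-0.61, edgeR adjusted p = 7.93e-05), as were LTA4H and LVRN. Without IGF2BP1-NC library 2 or IGF2BP1-KD library 3 the number of lower enzymes was 1, and LVRN kept its call in 1 of 6 fits with a library left out. Of 28 other tetraspanins, the family of CD9, 18 were tested, and 2 rose and 4 fell, where 13.7% and 14.5% of all tested genes did. Among them were TSPAN32 at 0.95, CD63 of lysosomes and granules at 0.69 and TSPAN14 at -0.82 on the log2 scale. The 4 that fell became 1 without IGF2BP1-NC library 2 and 2 when the third IGF2BP1-NC library or the first or the third IGF2BP1-KD library was omitted. In the list of CD36 relatives and fatty acid uptake genes, 13 of 16 were tested, 2 were higher (SLC27A2 and ACSL6) and 2 lower (SLC27A5 and ACSL1). ACSL6 was not called without IGF2BP1-NC library 1 or 2 or IGF2BP1-KD library 2 or 3, nor ACSL1 without any one of the IGF2BP1-KD libraries, which leaves 1 gene in that direction. Median log2 fold changes were 0.08 for the metallopeptidases, 0.06 for the tetraspanins and -0.11 for the CD36 list.

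Among 11 other complement regulators, 8 were tested, with 2 higher and 1 lower. CD46, the membrane cofactor that acts beside CD55 and CD59, rose from 2450, 2506 and 2564 to 3270, 3114 and 3488 counts (log2 fold change 0.40, edgeR adjusted p = 0.00079). CLU rose at a low level, with at most 78 counts. Of 29 genes that build or remodel the GPI anchor of CD55, CD59 and CD24, 28 were tested, 4 were higher and 2 lower, beside 13.7% and 14.5% of all tested genes. PIGA, whose loss in blood cells removes CD55 and CD59 from the surface, was higher (log2 fold change 0.77, edgeR adjusted p = 9.53e-05), as was PIGW (0.76), while PIGS fell by 0.43 on the log2 scale. The number of lower anchor genes was 4 without IGF2BP1-NC library 1, and 1 without IGF2BP1-NC library 2 or 3 or IGF2BP1-KD library 2. The medians were 0.48 for the complement list and 0.09 for the anchor list.

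Of 9 genes for ligands and partners of the antigens, 6 were tested. THBS1, thrombospondin and a ligand of CD36, rose from 40, 53 and 58 to 162, 200 and 212 counts (log2 fold change 1.93, edgeR adjusted p = 8.04e-05). PTGFRN and IGSF8, immunoglobulin proteins that bind CD9, were lower, by -0.66 and -0.55 on the log2 scale. ADGRE5, the adhesion receptor that binds CD55, had a log2 fold change of 0.0081 with a 95% interval from -0.18 to 0.20. SECTM1, the ligand of CD7, had at most 6 counts and SELP, a ligand of CD24, at most 1 count in any library.

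In the whole KEGG set, 29 of the other 84 genes were tested, 5 were higher (CD44, CSF3R, FLT3LG, CD22 and IL6R) and 4 lower (ITGB3, GP1BB and IL6 among them), with a median log2 fold change of 0.15. Both numbers are near the shares over all tested genes, 13.7% and 14.5%. CSF3R and IL6R reached the filter only through the IGF2BP1-KD and IL6 only through the IGF2BP1-NC libraries, and with at least 10 counts required in every library 3 genes were higher. IL6 lost its call whichever library was left out, and IL6R without IGF2BP1-NC library 2 or IGF2BP1-KD library 3. The 5 higher genes became 8 and 9 without IGF2BP1-NC library 1 and 3, and the 4 lower genes 1 without IGF2BP1-NC library 2 or 3 and 2 without any single IGF2BP1-KD library. Of 8 progenitor antigens, 4 were tested and PTPRC (CD45), the phosphatase on leukocytes, was lower, with 1972, 1551 and 1597 counts against 661, 624 and 945 (log2 fold change -1.19, edgeR adjusted p = 0.00335). FLT3 and IL3RA had 0 counts in every library, and PROM1 at most 2. Among the erythroid markers 2 were higher, SLC4A1 (2.50) and EPB42 (1.73), and 4 lower, among them RHAG (-0.63), GATA1 (-0.25) and KLF1 (-0.24), as log2 fold changes. The lower erythroid genes numbered 2 when any library but IGF2BP1-NC library 1 was left out. Of the 3 tested megakaryocyte markers ITGB3 and GP1BB were lower, the latter not without IGF2BP1-NC library 2 or 3 or IGF2BP1-KD library 2. In the plasma cell list SLAMF7 was the single gene that rose (4, 5 and 4 against 52, 42 and 181 counts, log2 fold change 4.37, edgeR adjusted p = 0.00878), a gene tested only through its IGF2BP1-KD counts whose call was lost without IGF2BP1-NC library 1 or 3, and in the T and NK cell list the single tested gene did not pass the threshold.

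**Figure D4:**
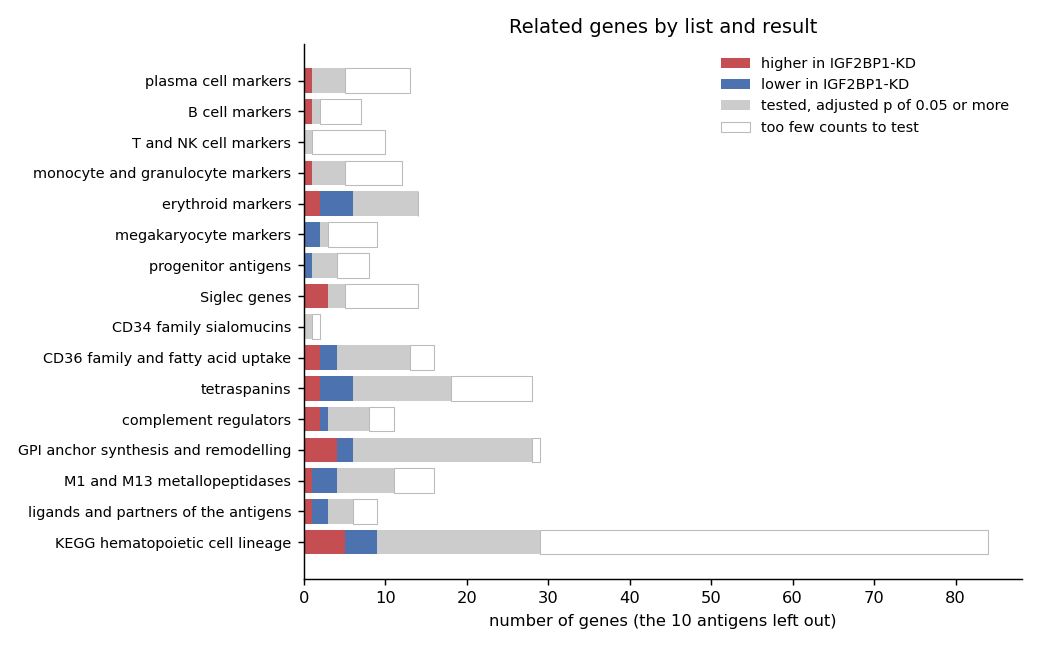
The plot of related genes shows, for each list without the 10 antigens, how many genes were higher, lower, tested without passing an adjusted p of 0.05, or too sparse to test in edgeR. Of the 14 Siglec genes 3 are higher and 0 lower, whereas tetraspanins and metallopeptidases hold genes of both directions and 55 of the 84 genes of the KEGG set were too sparse.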

How the data were processed

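RNA was sequenced from 6 libraries, 3 per group, grouped by GEO titles. The submitters' processing notes name Trimmomatic, HISAT2, HTSeq and the build GRCh38, and the authors deposited raw read counts per gene. The deposited FPKM values were calculated with Cufflinks, per the paper's methods. Versions, strand setting and annotation release were not given in the sources used here. Among the FPKM rows, 27 symbols differed from those of the counts, and rows were matched by NCBI gene number.

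Counts were tested in R 4.3.3 with edgeR 4.0.16 (TMM, filterByExpr, robust quasi-likelihood fit, two-sided) and Benjamini-Hochberg adjustment over 11994 genes, with an adjusted p under 0.05 as threshold. Intervals of log2 fold changes are 95%. Alternatives used DESeq2 1.42.0, limma 3.58.1 (voom, and log2(FPKM + 1) or log2(FPKM + 0.1) with a mean FPKM of at least 1 or no filter), library size scaling, no filter, at least 10 counts in every library, a replicate block and each library left out. Scripts were tested on simulated data. Positions came from GENCODE release 44 (GRCh38), promoters from RefSeq. Named genes are the 10 antigens, up to 3 called genes with the smallest adjusted p in each direction of each list, and listed genes needed as markers. CD22 and IL6R (KEGG set), IL6, KLF1, ADGRE5, SECTM1, SELP, PODXL, EMCN, SIGLEC10 and MAG fall outside this rule and were named after their values were seen. Some listed genes that were counted are not reported here by name. Antigens and lists were chosen with earlier results of these data known.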

Additional observations from a re-analysis of the deposited data

How the results depend on the processing

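CD33 and ANPEP were higher at an adjusted p under 0.05 in all 15 alternatives, and MME in all 13 in which it was tested. CD59 was called in 7 of 15, CD24 in 5 of 15, CD9 in 2 of 12 and CD55 in 1 of 15, and the cause was not tested. The number of antigens higher in IGF2BP1-KD, 5, became 3 without the filter on low counts, and 3 to 4 with each library left out (3 without IGF2BP1-NC library 2 or IGF2BP1-KD library 2). No antigen was lower in any alternative. The log2 fold change of CD36 turned to -0.004 without IGF2BP1-NC library 1 and to -0.13 without IGF2BP1-KD library 2, and was 0.36 without IGF2BP1-KD library 3. Among genes called over the whole table, lower, the number ranged from 1146 without IGF2BP1-KD library 2 to 2062 without IGF2BP1-NC library 1, against 1738.

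With the replicate number as a block, 3 antigens were higher (ANPEP, CD33 and MME) and 2913 genes were called in place of 3386. Same-numbered libraries did not deviate together (r = -0.052, 0.0363 and -0.106 across genes), and not every library correlated best with its own number. Whether same-numbered libraries were prepared together was not given in the sources used here, and such correlations cannot settle it.

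With 1 library left out, 6 to 9 neighbour pairs in the FPKM order had separate ranges in IGF2BP1-NC and 5 to 8 in IGF2BP1-KD. Leaving a library out can only narrow a range, so the higher numbers are no sign of a clearer separation. Of 480 counts over lists, 61 moved by more than 1.5 times or changed between 0 and a higher number. Called higher, the monocyte and granulocyte list ranged from 0 to 5 genes (5 without IGF2BP1-KD library 1, 4 with DESeq2), the KEGG set from 3 to 9 (9 without IGF2BP1-NC library 3) and the Siglec genes from 2 to 4. Called lower, the tetraspanins ranged from 1 to 5, the GPI anchor genes from 1 to 4 and the metallopeptidases from 1 to 3. Counts under about 20, as for CD9, limit what this depth can show.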
